A study of Homo sapiens with 3 samples.

Results

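The MHC class II antigen presentation genes examined here were HLA-DRA, HLA-DRB1, HLA-DPA1, HLA-DPB1, HLA-DQA1, HLA-DQB1, HLA-DMA, HLA-DMB, CD74 and CIITA, found by gene symbol as 10 of the 24424 genes in the deposited count table. The RNA came from the human melanoma line A375SM, a metastatic derivative of A375, with 1 library for each of 3 stable populations. The first carried a lentiviral short hairpin RNA against PRAME (shPRAME), the second one against BAP1 (shBAP1), and the third the control vector shEmpty, whose genotype label is WT. The labels differ on whether that control contained a non-targeting hairpin. All 3 populations were infected with vectors carrying a green fluorescent reporter and selected for it, and were grown in serum-containing medium with no other treatment named. PRAME is a cancer-testis antigen, and BAP1 is a deubiquitinase of histone H2A. Each hairpin was read in 1 population, so effects of a hairpin, of its target and of the population cannot be told apart.

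MHC class II molecules are pairs of an alpha and a beta chain (HLA-DR, HLA-DP and HLA-DQ) that display peptides from endosomes to CD4 T cells. CD74, the invariant chain, escorts new pairs to the endosome, where HLA-DM exchanges its remnant for a peptide. Transcription depends on CIITA, a coactivator that binds no DNA itself but docks on RFX, CREB and NF-Y proteins at a conserved promoter module of X and Y boxes. Professional antigen-presenting cells express the system constantly, other cells mostly under interferon gamma, and some melanomas express it without added interferon.

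Since each group was a single library, differences could not be checked against replicates and carry no p-value. Values are CPM, a library's counts scaled to a common depth with TMM factors. The words higher and lower are kept for genes that changed at least 2-fold with a ratio whose exact 95% counting interval, given in brackets, left out no change (the size rule). The interval covers counting error only, and the comparison is between libraries. A gene without a count was set at a floor of 3 counts, or 0.164 CPM in shPRAME, 0.202 CPM in shBAP1 and 0.160 CPM in shEmpty, and its fold at the floor is given together with the near end of its interval. Library totals lay between 14181829 and 19430130 counts. All 10 genes had a mean of at least 50 counts, the minimum that 11956 genes of the table reached. 6 of the 10 had fewer than 100 counts in shPRAME, and 4 of these (HLA-DRA, HLA-DRB1, CD74 and CIITA) had fewer than 50 there and reached that mean through the other libraries. Likewise HLA-DQA1 and HLA-DQB1, with 12 and 17 counts in shBAP1, reached it through the other libraries.

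The hairpin targets matched the labels. PRAME was at 108 CPM in shPRAME, 455 CPM in shBAP1 and 327 CPM in shEmpty, and BAP1 was at 97.9 CPM in shPRAME, 35.2 CPM in shBAP1 and 100.0 CPM in shEmpty. Of 12 melanoma markers, SOX10, CSPG4 and ERBB3 had at least 4896 counts in every library, while PMEL had 8, 34 and 6 counts and MLANA 7, 19 and 3 counts in shPRAME, shBAP1 and shEmpty.

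Several of these markers moved in the same libraries as the class II genes. Of the 10 measured ones 2 were higher and 2 lower in shPRAME, and 3 higher and 1 lower in shBAP1. Of all measured genes 10.2% were higher and 9.08% lower in shPRAME, and 5.53% higher and 8.56% lower in shBAP1. DCT, a pigment enzyme, had 6 counts in shPRAME, 1668 in shBAP1 and 192 in shEmpty, 31.2-fold lower in shPRAME (14.1 to 86.1) and 10.96-fold higher in shBAP1 (9.44 to 12.8). TYR, the tyrosinase gene, had 0, 573 and 4 counts in shPRAME, shBAP1 and shEmpty, 181-fold higher in shBAP1 (70.2 to 666). TYR, 1 of the 3 markers higher in shBAP1, reached the minimum mean count through that library alone. Its ratio rests on 4 counts in shEmpty. MITF, the melanocyte transcription factor, was 2.71-fold lower in shPRAME (2.58 to 2.85), and S100B was 2.58-fold higher in shBAP1 (2.41 to 2.75). CSPG4, a surface proteoglycan, was 2.39-fold higher in shPRAME (2.36 to 2.43) and 2.90-fold lower in shBAP1 (2.82 to 2.98), and S100A1 was 2.07-fold higher in shPRAME (1.99 to 2.16). The part of these differences in the class II results was not tested.

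Promoter sequences from the RefSeq table (GRCh38.p14) were matched by symbol for 8 of the 10 genes, that is, all but HLA-DRA and CIITA. The 150 bases before the annotated start are shown for HLA-DRB1, which had no count in shPRAME, HLA-DMA, which was lower there, the HLA-DQ pair, which had its lowest counts in shBAP1, and CD74, the member with the most counts. Capitals mark the X box letters (AG, any 2 bases, then ACNGATG) and the CCAAT letters of the Y box (ATTGG), searched on both strands.
HLA-DRB1: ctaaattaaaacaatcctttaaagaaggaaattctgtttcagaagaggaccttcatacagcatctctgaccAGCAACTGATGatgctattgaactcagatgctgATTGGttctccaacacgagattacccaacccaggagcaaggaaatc
HLA-DMA: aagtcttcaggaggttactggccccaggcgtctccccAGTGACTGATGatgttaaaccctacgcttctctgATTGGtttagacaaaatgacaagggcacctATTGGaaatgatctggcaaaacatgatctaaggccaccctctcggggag
HLA-DQB1: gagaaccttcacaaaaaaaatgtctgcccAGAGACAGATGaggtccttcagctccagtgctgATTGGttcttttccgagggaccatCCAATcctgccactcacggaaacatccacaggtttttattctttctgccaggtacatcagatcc
HLA-DQA1: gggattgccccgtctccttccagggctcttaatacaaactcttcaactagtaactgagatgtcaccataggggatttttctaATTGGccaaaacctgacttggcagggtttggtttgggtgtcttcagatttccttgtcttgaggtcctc
CD74: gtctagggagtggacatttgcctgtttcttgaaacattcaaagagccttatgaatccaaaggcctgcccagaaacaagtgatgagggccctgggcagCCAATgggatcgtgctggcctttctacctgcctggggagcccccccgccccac
These windows lie at chr6:32589849-32589998 (minus strand), chr6:32953098-32953247 (minus), chr6:32666658-32666807 (minus), chr6:32637256-32637405 (plus) and chr5:150412911-150413060 (minus). They are reference letters, and the alleles of A375SM were not read.

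The X box letters occurred in the windows of HLA-DRB1, HLA-DMA, HLA-DMB and HLA-DQB1, and in 0.379% of 35116 windows of the same length over all RefSeq genes. Only exact matches to these letters were sought. A window without them may still hold an X box with other letters, so absence of the box was not shown for any gene. The CCAAT letters occurred in 23.5% of all windows, among them those of each matched member other than HLA-DPA1, which has 2 annotated starts. X box letters followed within 10 to 30 bases on the same strand by CCAAT letters were found in 7 windows (0.0199%). 4 of these belong to class II genes, namely HLA-DRB1, HLA-DRB5, HLA-DMA and HLA-DQB1, with gaps of 22 bases in HLA-DRB1, HLA-DRB5 and HLA-DQB1 and 23 bases in HLA-DMA. The letters describe boxes of class II promoters, so matches before class II genes are a description and no independent test. Matches to the X box and CCAAT letters stand before both HLA-DRB1 and HLA-DQB1, which went opposite ways in the shPRAME library. Their X box matches differ, with AGCAACTGATG before HLA-DRB1 and AGAGACAGATG before HLA-DQB1. The part of these promoter letters in the opposite ratios was not tested. The 2 motifs did not overlap in any printed window.

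In the shPRAME library 8 of the 10 genes were lower than in shEmpty and 1 was higher, where 19.3% of all measured genes passed the size rule (9.08% lower and 10.2% higher). The median log2 ratio of the members was -2.59, against -0.06 over all measured genes. CIITA, the DR chains and CD74 fell furthest, the DP and DM chains fell less, and the DQ chains were not among the genes that fell. In bulk RNA fewer expressing cells and less RNA per cell cannot be told apart. In the shBAP1 library 2 members were higher and 2 lower, against 5.53% and 8.56% of all measured genes (14.1% in either direction), and the 2 lower ones were the DQ chains. Over all measured genes 661 were higher and 1024 lower in shBAP1 with TMM scaling, but 829 higher and 837 lower with total-count scaling, under which the members' split was again 2 and 2. With TMM scaling the median log2 ratio of the members in shBAP1 was 0.56, against -0.03 over all measured genes. Both comparisons share the shEmpty library.

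**Figure D1:**
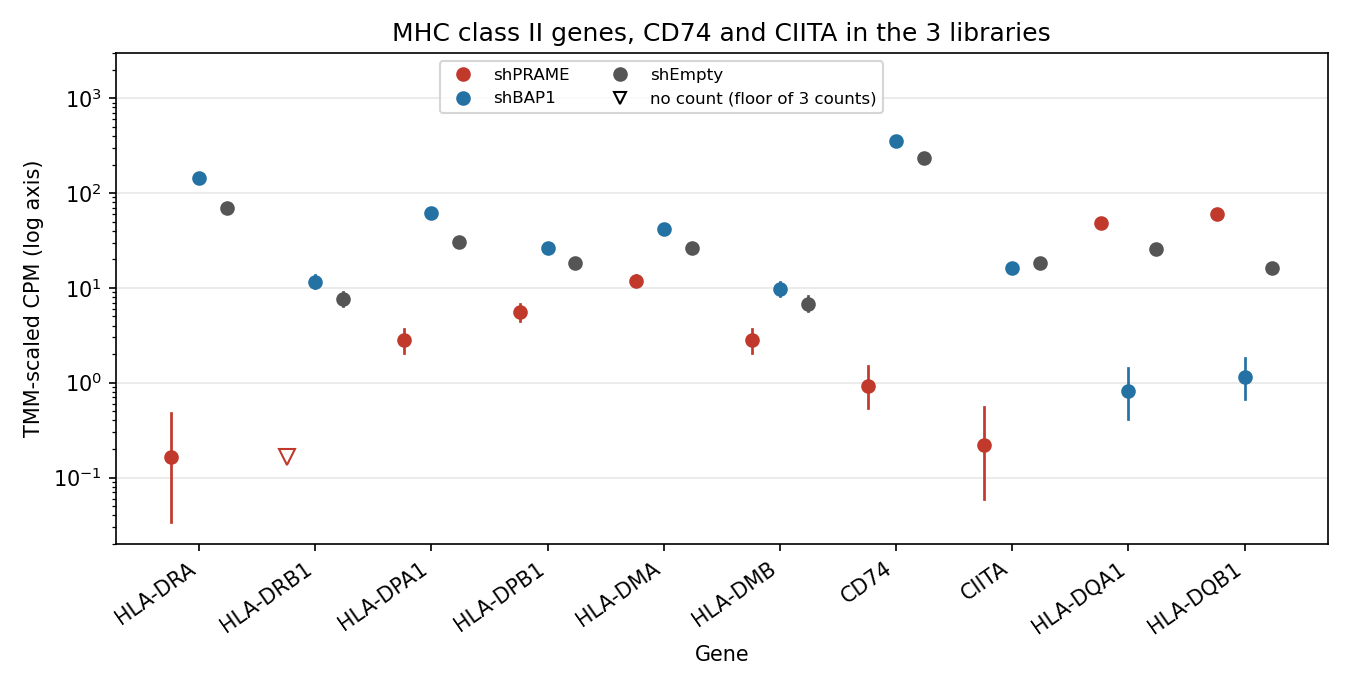
TMM-scaled CPM (log axis) of each member in the 3 libraries, with dots for the value, vertical lines for the exact 95% counting interval and an open triangle for the floor of 3 counts where no count was present. The shPRAME library lies below the other libraries for HLA-DR, HLA-DP, HLA-DM, CD74 and CIITA, and the shBAP1 library lies below them for HLA-DQA1 and HLA-DQB1.

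CIITA, the transactivator of the family, had 4 counts in shPRAME (0.219 CPM), 241 in shBAP1 (16.2 CPM) and 346 in shEmpty (18.5 CPM). It was 84.4-fold lower in shPRAME than in shEmpty (32.7 to 312), while its ratio of shBAP1 to shEmpty was 0.879 (0.743 to 1.04). The shPRAME library was thus the low one, and the intervals of the shBAP1 and shEmpty levels overlapped. Counts per gene do not separate the alternative CIITA promoters. DEXI, a neighbour on the opposite strand, overlaps 11.6% of the exonic bases of CIITA in GENCODE 29, and whether the authors counted by strand is not given in the sources used here. DEXI itself had 262 counts in shPRAME, 309 in shBAP1 and 243 in shEmpty, so the loss of counts was not shared by it.

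HLA-DRA, the nearly invariant alpha chain of HLA-DR, had 3 counts in shPRAME (0.164 CPM), 2120 in shBAP1 (143 CPM) and 1311 in shEmpty (70.0 CPM). It was 426-fold lower in shPRAME (146 to 2070.4) and 2.04-fold higher in shBAP1 (1.90 to 2.19), each against shEmpty. HLA-DRB1, the main beta chain, had no count in shPRAME, 173 in shBAP1 (11.7 CPM) and 144 in shEmpty (7.69 CPM). It was 46.8-fold lower in shPRAME with the floor in place of 0, and at least 37.6-fold lower by its interval. Its shBAP1 to shEmpty ratio of 1.52 (1.21 to 1.90) was within the 2-fold limit. Of the 3 libraries, shPRAME was thus the one with next to no DR counts.

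The further DR loci were scarce everywhere and showed the same low library. HLA-DRB5, a second functional beta chain of some haplotypes, had 1 count in shPRAME, 32 in shBAP1 and 47 in shEmpty, a ratio of 45.9-fold downward in shPRAME (7.84 to 1850). The pseudogene HLA-DRB6 had 0, 45 and 30 counts in shPRAME, shBAP1 and shEmpty. HLA-DRB3 and HLA-DRB4 had no count in any library. In reference transcripts 14.9% of the 100-base windows of HLA-DRB1, the read length, match HLA-DRB5 with at most 2 mismatches, so reads of the 2 genes may be exchanged, and reads of alleles unlike the reference may be missing.

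CD74 had the most counts of the family in shBAP1 and shEmpty. It stood at 17 counts in shPRAME (0.930 CPM), 5285 in shBAP1 (356 CPM) and 4345 in shEmpty (232 CPM). It was 249-fold lower in shPRAME (156 to 429), with a shBAP1 to shEmpty ratio of 1.54 (1.47 to 1.60). CD74 is encoded on chromosome 5, apart from the HLA genes on chromosome 6 and CIITA on chromosome 16, and the interval of its shPRAME to shEmpty ratio overlapped that of HLA-DRA, while the intervals of their levels in shPRAME did not overlap.

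The DP chains kept more of their counts in shPRAME. HLA-DPA1 was at 2.79 CPM in shPRAME, 61.7 CPM in shBAP1 and 30.3 CPM in shEmpty, which made it 10.8-fold lower in shPRAME (8.14 to 14.7) and 2.04-fold higher in shBAP1 (1.83 to 2.27). HLA-DPB1 was at 5.52 CPM in shPRAME, 26.2 CPM in shBAP1 and 18.4 CPM in shEmpty. It was 3.33-fold lower in shPRAME (2.66 to 4.20), and its shBAP1 to shEmpty ratio was 1.42 (1.23 to 1.65). The fall of the alpha chain was larger than that of the beta chain, and their intervals did not overlap. The 2 genes face each other on opposite strands and share 96 exonic bases, 3.44% of those of HLA-DPB1.

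The HLA-DM genes, which encode the peptide-exchange catalyst, changed least among those that fell. HLA-DMA was at 11.9 CPM in shPRAME, 41.5 CPM in shBAP1 and 26.0 CPM in shEmpty, 2.18-fold lower in shPRAME (1.86 to 2.57) and just past the 2-fold limit. HLA-DMB was at 2.79 CPM in shPRAME, 9.83 CPM in shBAP1 and 6.83 CPM in shEmpty, 2.45-fold lower in shPRAME (1.76 to 3.46). The intervals of both ratios reach below 2-fold. In shBAP1 their ratios to shEmpty were 1.59 (1.41 to 1.80) for HLA-DMA and 1.44 (1.13 to 1.84) for HLA-DMB. The genes of HLA-DO, which restrains HLA-DM, were almost silent, HLA-DOA with 0, 9 and 14 counts and HLA-DOB with 0, 0 and 1 in shPRAME, shBAP1 and shEmpty.

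The HLA-DQ genes went the other way in both populations. HLA-DQA1, the alpha chain, had 894 counts in shPRAME (48.9 CPM), 12 in shBAP1 (0.808 CPM) and 483 in shEmpty (25.8 CPM). It was 31.9-fold lower in shBAP1 (18.1 to 62.2), and its shPRAME to shEmpty ratio of 1.90 (1.70 to 2.12) fell short of the limit, which it passed with upper-quartile scaling (log2 ratio 1.01 in place of 0.92). HLA-DQB1, the beta chain, had 1101 counts in shPRAME (60.2 CPM), 17 in shBAP1 (1.15 CPM) and 305 in shEmpty (16.3 CPM). It was 3.70-fold higher in shPRAME (3.26 to 4.21) and 14.2-fold lower in shBAP1 (8.73 to 24.7). So the DQ counts were highest in the library where CIITA had 4 counts, and lowest in shBAP1, where CIITA had 241. The shEmpty library, with the most CIITA counts (346), lay between them in DQ counts, so DQ did not run opposite to CIITA throughout.

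The DQ paralogs had their highest and lowest counts in the same libraries. HLA-DQA2 had 898 counts in shPRAME, 15 in shBAP1 and 463 in shEmpty, and HLA-DQB2 had 865, 15 and 204. The level intervals of HLA-DQB2 lay below those of HLA-DQB1 in shPRAME and in shEmpty. Relative to shEmpty, HLA-DQB2 was 4.35-fold higher in shPRAME (3.73 to 5.09) and 10.8-fold lower in shBAP1 (6.38 to 19.6), and HLA-DQA2 was 24.5-fold lower in shBAP1 (14.7 to 44.1), with a ratio of 1.99 in shPRAME (1.78 to 2.23). How the authors treated reads that match several genes is not given in the sources used here. In reference transcripts 13.1% of the 100-base windows of HLA-DQA1 match HLA-DQA2 with at most 2 mismatches and 5.51% of those of HLA-DQB1 match HLA-DQB2. Which of the DQ loci the reads came from is therefore uncertain. HLA-DQA1 and HLA-DQA2 had close counts, at 894 and 898 in shPRAME, 12 and 15 in shBAP1, and 483 and 463 in shEmpty. If reads that match several loci were counted at each, the loci are not separate observations and their sum holds some reads more than once. The direction is thus read for the 4 loci together and not for each. Summed over those 4, the level was 206 CPM in shPRAME, 3.97 CPM in shBAP1 and 77.7 CPM in shEmpty, a ratio of 2.65 for shPRAME (2.49 to 2.81) and 19.5-fold downward for shBAP1 (15.1 to 25.8).

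**Figure D2:**
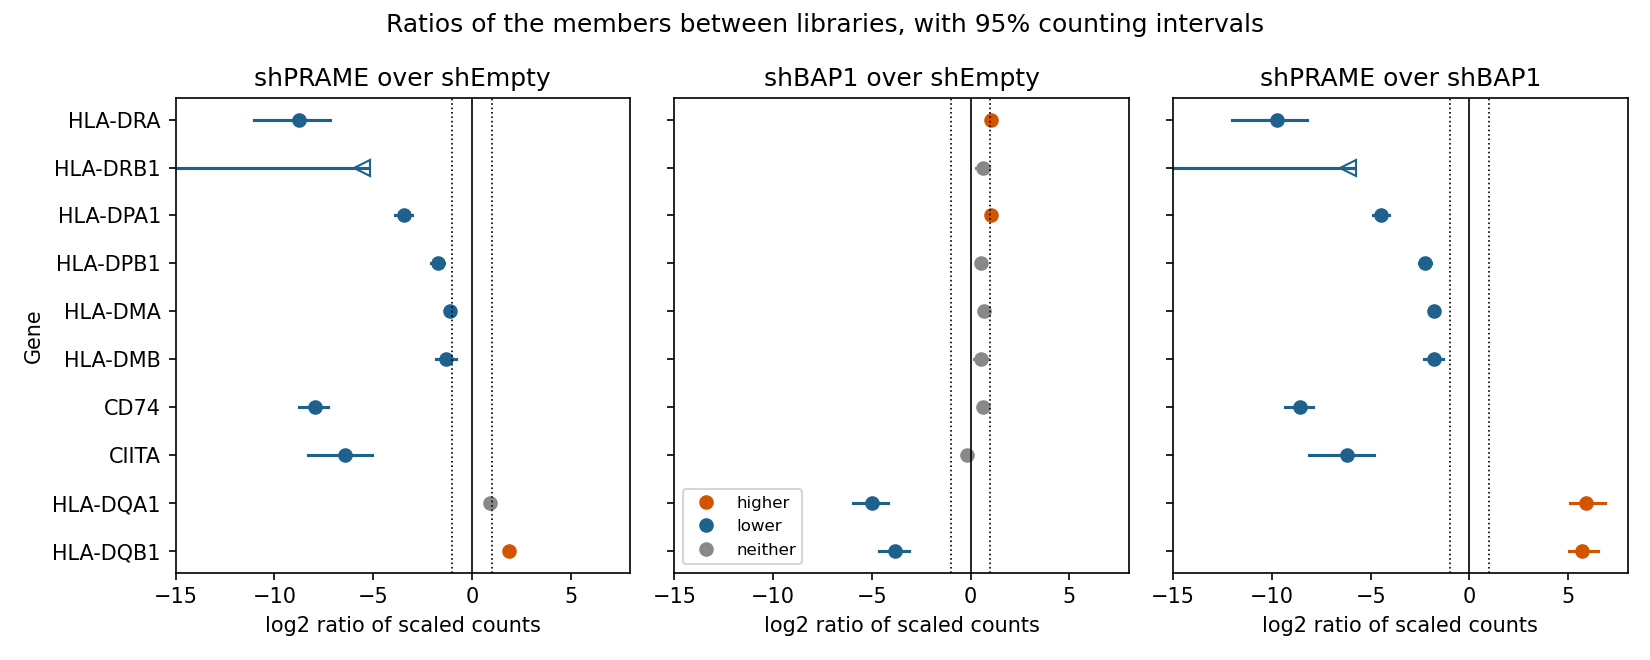
Log2 ratios of scaled counts for each member in the 3 comparisons, with exact 95% counting intervals. An open triangle marks a value at the floor with its line running to the axis edge, dotted lines mark 2-fold, and colours give higher, lower or neither. HLA-DQA1 and HLA-DQB1 lie on the opposite side of 0 from HLA-DR, HLA-DP, HLA-DM and CD74 in every panel.

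The makeup of the class II counts differed accordingly. The DQ chains held 81.8% of the 2440 member counts in shPRAME, 0.292% of 9915 in shBAP1 and 9.31% of 8462 in shEmpty. Because the locus of the DQ reads is uncertain, these shares and the DQ levels per kilobase below carry that limit. HLA-DQA2 and HLA-DQB2 are no members and were left out of these counts. The DR chains held 0.123% in shPRAME, 23.1% in shBAP1 and 17.2% in shEmpty. Per kilobase of transcript, using GENCODE 29 lengths, the order of levels in shPRAME began with HLA-DQA1 (40.5 CPM per kb) and HLA-DQB1 (36.4), whose intervals overlapped, followed by HLA-DMA (10.6). In shBAP1 it began with CD74 (313 CPM per kb) and HLA-DRA (112) and ended with HLA-DQB1 (0.692) and HLA-DQA1 (0.670), the last pair overlapping. In shEmpty CD74 (204 CPM per kb) and HLA-DRA (54.7) led, HLA-DMA (23.2) and HLA-DQA1 (21.4) overlapped, as did HLA-DPB1 (11.8) and HLA-DQB1 (9.83), and HLA-DRB1 (6.25), HLA-DMB (4.89) and CIITA (3.97) each overlapped the gene above or below.

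Set directly against shBAP1, shPRAME had all 8 genes other than the DQ chains lower and both DQ chains higher, where 25.1% of all measured genes passed (10.9% lower and 14.2% higher). HLA-DRA was 870.3-fold lower in shPRAME than in shBAP1 (297 to 4223.6), CD74 383-fold (239 to 658) and CIITA 74.2-fold (28.6 to 275). HLA-DRB1 was 71.0-fold lower with the floor in place of 0, and at least 57.1-fold lower by its interval. HLA-DPA1 was 22.1-fold lower (16.7 to 29.9) and HLA-DPB1 4.74-fold (3.80 to 5.96), and the DM genes were 3.48-fold (HLA-DMA) and 3.53-fold (HLA-DMB) lower. HLA-DQA1 was 60.5-fold higher in shPRAME (34.5 to 118) and HLA-DQB1 52.6-fold (32.7 to 90.6).

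Along chromosome 6 the DQ genes lie between the DR genes and the DM and DP genes, so the opposite ratios interrupt a row of genes that fell in shPRAME. Of 21 listed genes of the region that are no class II genes, 14 were measured. In shPRAME 1 was higher, COL11A2, a fibrillar collagen chain (log2 ratio 2.70), and 1 lower, the kinesin KIFC1 (-1.23), with a median of 0.12. Of all measured genes 10.2% were higher and 9.08% lower in shPRAME. TAP1, TAP2 and PSMB8, class I pathway genes that stand between the DQ and DM genes, had log2 ratios of 0.46, -0.81 and -0.57 there. In shBAP1 13 of the 14 neighbours had a ratio above 0, with a median of 0.51 against -0.03 over all measured genes. PSMB8 (1.04) and WDR46 (1.20) passed the limit there, where 5.53% of all measured genes were higher and 8.56% lower. The ratios of HLA-DR, HLA-DP and HLA-DM in shBAP1, between 0.51 and 1.03, lay in the range of those neighbours. The part of a regional shift in them was not tested. CD74, with a log2 ratio of 0.62 in shBAP1, lies on another chromosome. Its 7 measured neighbours had medians of -0.23 in shPRAME and 0.05 in shBAP1, and their highest log2 ratio in shBAP1 was 0.38. In shPRAME 1 of them was higher, the growth factor receptor gene PDGFRB (4.98-fold, 3.86 to 6.50), and none lower, and in shBAP1 none was higher and 1 lower, the actin-binding SYNPO (2.30-fold, 1.99 to 2.67). The 7 measured neighbours of CIITA had medians of 0.14 in shPRAME and 0.40 in shBAP1, with none past the limit.

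**Figure D3:**
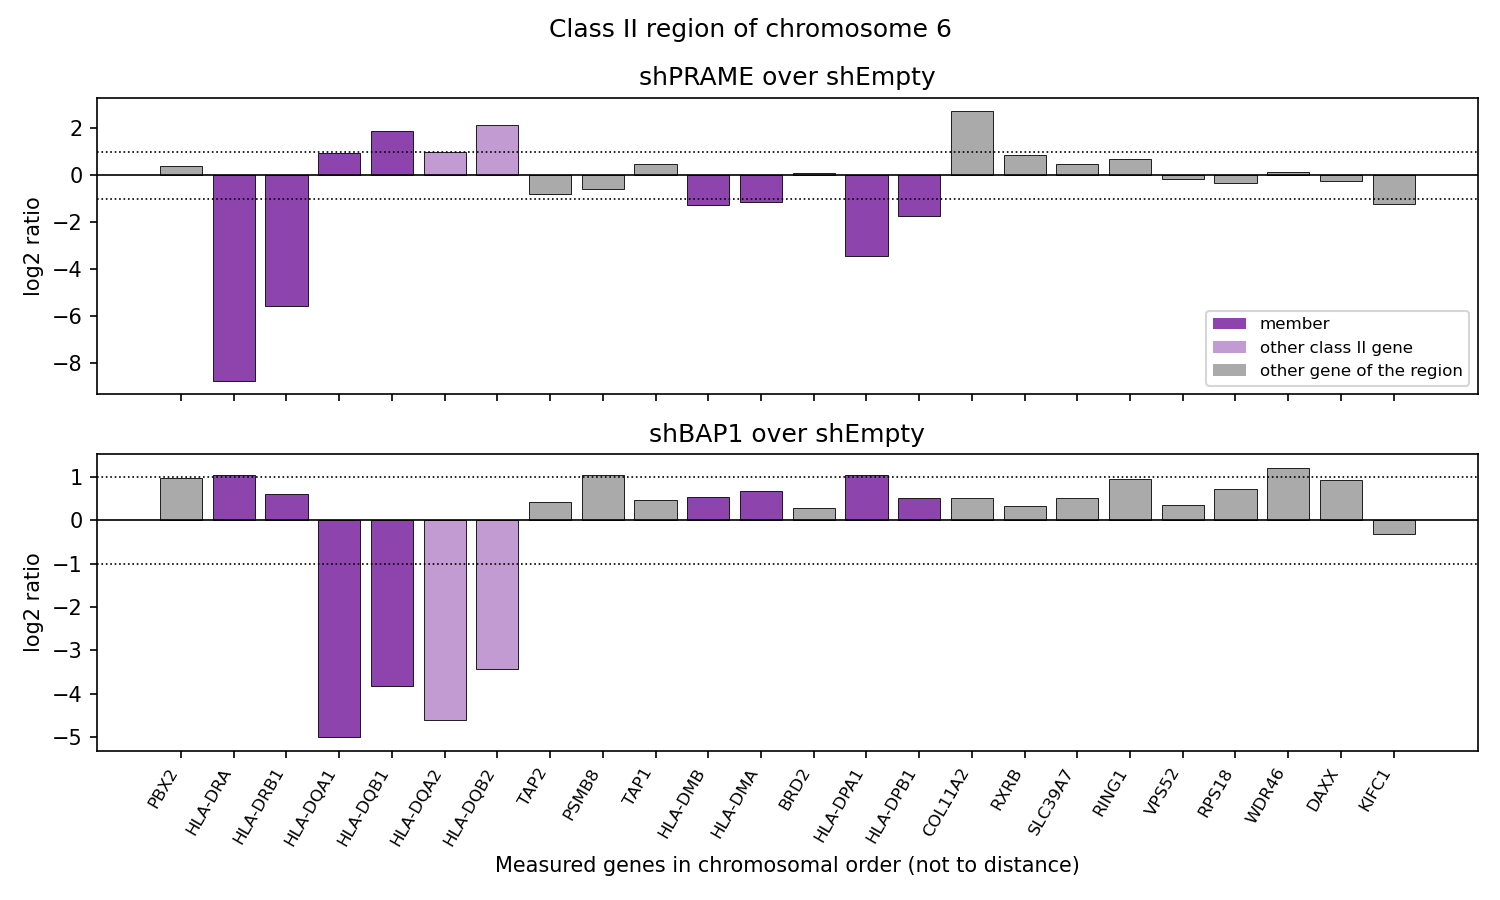
Log2 ratio to shEmpty of measured genes of the class II region in chromosomal order, for shPRAME (top) and shBAP1 (bottom). Bars are spaced by rank and not by distance, dotted lines mark 2-fold, and the shPRAME bar of HLA-DRB1 is set at the floor. The DQ bars rise in shPRAME and fall in shBAP1 between members that do the reverse, except that HLA-DQA1 and HLA-DQA2 stay just within 2-fold in shPRAME and only HLA-DRA and HLA-DPA1 pass it upward in shBAP1.

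Genes of proteins that bind class II promoters with CIITA did not pass the size rule in any comparison. None of the 8 measured genes of RFX (RFX5, RFXAP, RFXANK), NF-Y (NFYA, NFYB, NFYC) and the CREB family (CREB1, ATF1) did so. Of all measured genes 19.3% passed in shPRAME and 14.1% in shBAP1 against shEmpty, and 25.1% in shPRAME against shBAP1. The log2 ratios of the 8 genes to shEmpty lay between -0.70 and 0.25 in shPRAME and between -0.70 and 0.20 in shBAP1. RFX5, which recognises the X box, had 1490 counts in shPRAME, 1458 in shBAP1 and 1601 in shEmpty. Of 9 measured coactivators and repressors tied to CIITA, 2 were lower in shPRAME and none passed in shBAP1, where 9.08% of all measured genes were lower in shPRAME and 14.1% passed in shBAP1. KAT2B, an acetyltransferase of CIITA, was at 13.5 CPM in shPRAME, 98.5 CPM in shBAP1 and 61.7 CPM in shEmpty, 4.59-fold lower in shPRAME (3.996 to 5.29). EZH2, the Polycomb methyltransferase, was at 29.4 CPM in shPRAME, 59.1 CPM in shBAP1 and 85.3 CPM in shEmpty, 2.90-fold lower in shPRAME (2.63 to 3.20).

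The interferon gamma route to CIITA was measured through 8 of 10 listed genes. IFNG, the cytokine itself, had no count in any library, which allows levels up to the floor. In shPRAME no gene of the list passed the limit (median 0.12), against 19.3% of all measured genes. In shBAP1 1 gene was lower, against 8.56% of all measured genes. That gene was the receptor kinase gene JAK2, at 7.95 CPM in shBAP1 against 16.1 CPM in shEmpty (2.02-fold, 1.63 to 2.52). IRF1, an activator of CIITA, had 101 counts in shPRAME, 85 in shBAP1 and 149 in shEmpty.

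Genes of endosomal processing passed the size rule in a few cases. Of 11 measured genes 2 were higher and none lower in shPRAME, with a median of 0.68, and none were higher and 3 lower in shBAP1, with a median of -0.35. Of all measured genes 10.2% were higher in shPRAME and 8.56% lower in shBAP1, and the counts of this short list are given as a description. Directly between shPRAME and shBAP1, 5 were higher in shPRAME and 1 lower, against 14.2% and 10.9% of all measured genes. The lower one was AP1S2, an adaptor subunit of endosomal sorting, 2.78-fold lower in shPRAME than in shBAP1 (2.65 to 2.92). CTSS, the cathepsin that trims the invariant chain, was at 33.3 CPM in shPRAME, 8.08 CPM in shBAP1 and 21.9 CPM in shEmpty, 2.71-fold lower in shBAP1 than in shEmpty (2.21 to 3.35). LGMN, an asparaginyl endopeptidase that begins invariant chain cleavage, was at 194 CPM in shPRAME, 43.3 CPM in shBAP1 and 81.5 CPM in shEmpty, 2.38-fold higher in shPRAME (2.24 to 2.53). CTSB, a lysosomal cysteine protease, was 3.03-fold higher in shPRAME (2.97 to 3.09) and 2.15-fold lower in shBAP1 (2.09 to 2.22), and the related CTSF was 2.86-fold lower in shBAP1 (2.39 to 3.44). IFI30, the lysosomal thiol reductase of antigen processing, was at 30.03 CPM in shPRAME, 10.3 CPM in shBAP1 and 16.0 CPM in shEmpty, 2.91-fold higher in shPRAME than in shBAP1 (2.43 to 3.51).

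**Figure D4:**
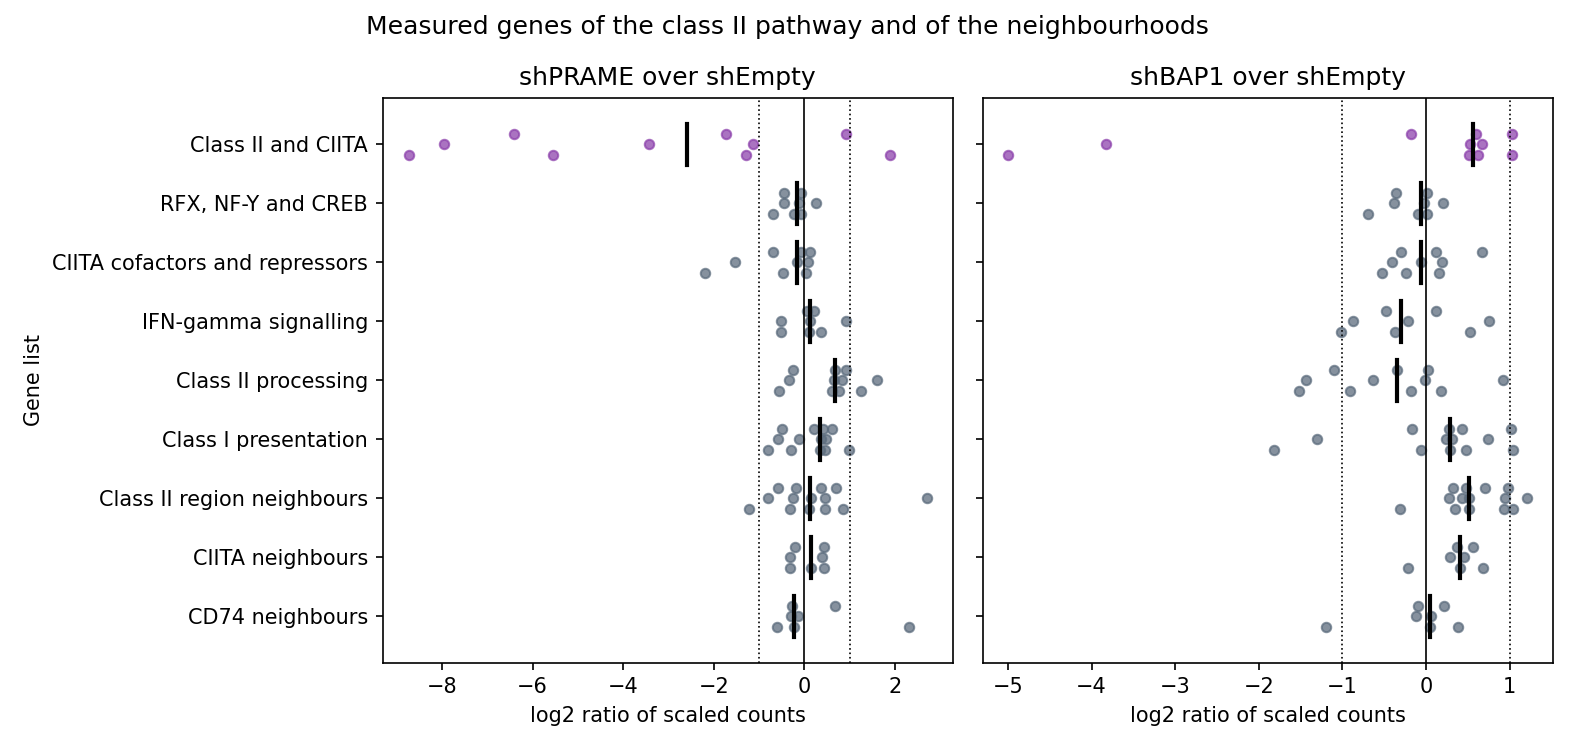
Log2 ratios to shEmpty of measured genes in the class II pathway lists and the gene neighbourhoods, for shPRAME (left) and shBAP1 (right); each dot is a gene, black bars are medians and dotted lines mark 2-fold. The members spread from -8.74 to 1.89 in shPRAME and from -5.00 to 1.03 in shBAP1, while the RFX, NF-Y and CREB genes stay within 2-fold in both.

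Class I presentation genes were counted in the same way. None of 13 measured class I genes passed the limit in shPRAME (19.3% of all measured genes), where NLRC5, the class I counterpart of CIITA, had 269 counts against 139 in shEmpty (1.98-fold, 1.61 to 2.45). In shBAP1 HLA-B was 3.54-fold (3.30 to 3.79) and HLA-C 2.46-fold (2.32 to 2.61) lower than in shEmpty, while TAPBP (log2 ratio 1.01) and PSMB8 were higher. So 2 of the 13 passed in each direction, as 2 of the 10 members did. Of all measured genes 5.53% were higher and 8.56% lower in shBAP1.

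Markers of professional antigen-presenting and other immune cells were read beside these results. Of 22 such genes 7 had no count in shPRAME, 13 in shBAP1 and 11 in shEmpty, and their summed level was 163 CPM in shPRAME, 75.4 CPM in shBAP1 and 59.8 CPM in shEmpty. CD68, a lysosomal protein that non-immune cells also express, gave most of it, with 2639 counts in shPRAME, 916 in shBAP1 and 919 in shEmpty. The B cell gene MS4A1 and the dendritic cell genes CD1C, CLEC9A and FCER1A had no count in shBAP1 and shEmpty, and AIF1, TYROBP and CD86 had none in any library. Others of the list did have counts there. In shBAP1 and shEmpty CD79B, another B cell gene, had 4 and 1 counts, and CSF1R had 4 and 5. CD40 had 6 counts in shBAP1, and CD79A, CD80 and SPI1 had 1 each in shEmpty. An immune cell source of the class II counts was not tested. PTPRC, the pan-leukocyte marker CD45, had 52 counts in shPRAME, 32 in shBAP1 and 40 in shEmpty, LYZ had 34, 15 and 3, and CD14 had 19, 5 and 1. ITGAX, an integrin of myeloid cells, had 161 counts in shPRAME, 8 in shBAP1 and 40 in shEmpty, and CD83, a dendritic cell maturation marker, had 53, 129 and 109.

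Over the log2 ratios of shPRAME and shBAP1 to shEmpty (3 libraries), the measured genes nearest to CD74 outside the family were PAGE5 (Euclidean distance 1.25), PCSK2 (2.78), LAMA1 (3.18), ADAMTS1 (3.31) and BCL2 (3.36). The nearest to CIITA were PAGE5 (1.02), PCSK2 (1.13), LAMA1 (1.52), BCL2 (1.63) and LGI3 (1.70). PAGE5, a cancer-testis gene, had 11 counts in shPRAME, 1623 in shBAP1 and 1193 in shEmpty, and LAMA1, a laminin chain, had 66, 917 and 3103. The order rests on single libraries, and the ratio of PCSK2 in shPRAME is set at the floor, since it had no count there.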

How the data were processed

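Per the labels' protocols, total RNA was extracted with TRIzol from stable, reporter-selected populations, and messenger RNA libraries from a directional kit were sequenced as paired reads of 100 bases. The submitters' processing notes name the assembly hg19 (GRCh37) and the tools TopHat, Cufflinks, FastQC and edgeR. The values are whole-number read counts per gene symbol, as deposited by the authors. The counting tool, gene annotation, use of strand and treatment of multiply matching reads are not stated there or in the labels.

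TMM factors from edgeR 4.0.16 under R 4.3.3 scaled the 3 libraries. Ratios carried exact conditional binomial intervals, and levels exact Poisson intervals, both at 95% (Python 3.11.15, scipy 1.17.1). Genes with a mean of at least 50 counts were measured. The procedure was tested on simulated data. With 1 library a group, the edgeR and DESeq2 tests had no replicates to use; DESeq2 (1.42.0) gave size factors as an alternative. Transcript lengths and overlaps came from GENCODE 29 (GRCh38) and gene order and promoters from RefSeq (GRCh38.p14), and no coordinate was joined to the hg19 counts other than by symbol.

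The members, lists and tests were chosen with earlier results of these data known. All members were named. Of the other lists, genes past the limit against shEmpty and up to 3 abundant others could be named, as were the 5 genes nearest in pattern to CD74 and to CIITA. Some list genes are not reported here by name. Other genes in the text, named with their values as context, were chosen after those values were seen.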

Additional observations from a re-analysis of the deposited data

How the results depend on the processing

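The count of members past the limit stayed within 1.5 times in shPRAME against shEmpty and in shPRAME against shBAP1 under each alternative tried (scaling by total count, upper quartile or DESeq2, a count minimum of 10, of 200 or left out, a fold limit of 1.5 or of 3, intervals wholly beyond 2-fold, and 1 CPM added as a pseudocount). In shPRAME against shEmpty 9 members passed, but 7 did so with a limit of 3 or a whole interval beyond 2-fold, neither DM gene among them. With a minimum of 200 HLA-DRB1, HLA-DMB and CIITA were not tested, and 6 of the 7 tested members passed. In shBAP1 against shEmpty 4 members passed, but 7 did so with a fold limit of 1.5, and 2, the DQ chains, with a limit of 3 or a whole interval beyond 2-fold. Of 120 log2 ratios of members recomputed under other scalings or the pseudocount, 119 kept their direction and side of the limit, and HLA-DQA1 in shPRAME passed it with upper-quartile scaling. The pseudocount shrank the log2 ratios of members with few counts. In shPRAME against shEmpty HLA-DRA stood at -5.93 in place of -8.74, CD74 at -6.92 in place of -7.96, CIITA at -4.00 in place of -6.40 and HLA-DRB1 at -3.12 in place of -5.55, close to HLA-DPA1 at -3.04, and in shBAP1 HLA-DQA1 stood at -3.89 in place of -5.00 and HLA-DQB1 at -3.01 in place of -3.83. Total-count scaling moved the median of all genes in shBAP1 against shEmpty to 0.09 in place of -0.03.

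Over all genes, 2311 passed in shPRAME against shEmpty, 1685 in shBAP1 against shEmpty and 3006 in shPRAME against shBAP1. In that order the counts were 4903, 3645 and 5749 with a fold limit of 1.5, 991, 778 and 1361 with a limit of 3, and 3774, 3016 and 4727 without a count minimum. With a minimum of 200 they were 1534 and 1008 in the comparisons with shEmpty. In shBAP1 against shEmpty 2543 passed with a minimum of 10 and 1098 with a whole interval beyond 2-fold. No paired analysis was possible because each group had 1 library. Depth limits the ratios on few counts, above all those of HLA-DRA, HLA-DRB1 and CIITA in shPRAME and of the DQ chains in shBAP1.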

Other observations

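Partners of CD74 outside antigen presentation were read from the same libraries. MIF, a cytokine that binds CD74 at the cell surface, had 4397 counts in shPRAME, 3289 in shBAP1 and 6519 in shEmpty, with log2 ratios to shEmpty of -0.53 in shPRAME and -0.65 in shBAP1. CD44, the signalling partner of CD74, had 23148 counts in shPRAME, 12165 in shBAP1 and 21244 in shEmpty, while CXCR4, another receptor of MIF, had 1 count in shPRAME and none in the others. None of the 3 measured genes of this list passed the 2-fold limit in any comparison. Of all measured genes 19.3% passed in shPRAME and 14.1% in shBAP1 against shEmpty, and 25.1% in shPRAME against shBAP1.

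Of 3 further genes listed as CIITA targets, RAB4B, a small GTPase of endosome recycling, was 2.31-fold lower in shPRAME than in shEmpty (1.82 to 2.94), on 102 counts in shPRAME and 241 in shEmpty. The butyrophilin BTN2A2 and the plexin PLXNA1 had log2 ratios of 0.13 and 0.45 in that comparison, in which 9.08% of all measured genes were lower and 10.2% higher. None of the 3 genes passed in shBAP1 against shEmpty or in shPRAME against shBAP1, where 14.1% and 25.1% of all measured genes did. PRDM1, known as a repressor of CIITA in plasma cells, was below the count minimum with 34 counts in shPRAME, 48 in shBAP1 and 4 in shEmpty.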
